A study of Mus musculus with 15 samples.

Results

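The 8 genes described here encode steps of fatty acid oxidation in the peroxisome. They are the transporters Abcd2 and Abcd3, the acyl-CoA oxidases Acox2 and Acox3, the bifunctional enzymes Ehhadh and Hsd17b4, and the thiolases Acaa1a and Acaa1b. They were chosen by name, and each was read from the probe set that carries its Entrez Gene number, 8 of the 25206 probe sets on the array. Expression was measured on 15 one-colour Affymetrix arrays of adipocytes sorted by flow cytometry from UCP1/Tomato mice aged 8 to 10 weeks, starting from 2 ng of total RNA per array. The labels name the sorting marker UCP1(GFP), and whether GFP or Tomato was gated on is not clear from them.

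UCP1 is the uncoupling protein that lets brown and beige fat cells make heat. The reference group held white adipocytes that were UCP1-negative, from inguinal fat of untreated mice (WAT, 4 arrays). The brown group came from the brown fat of mice that were also untreated and held UCP1-positive adipocytes (BAT, 3 arrays). The other groups held UCP1-positive cells from inguinal fat of treated mice. These mice had received CL316243, which activates the beta-adrenergic receptor of adipocytes (CL, 3 arrays), roscovitine, an inhibitor of cyclin-dependent kinases (RS, 2 arrays), or rosiglitazone, an agonist of PPAR gamma (RG, 3 arrays). The design text gives 3 or 4 samples per group, and 2 were analysed here for RS. No group held UCP1-positive inguinal cells of untreated mice, so in each comparison of a treated group with WAT the treatment and the gate cannot be told apart. The labels give no dose, duration, sex or array batch, and do not say whether arrays came from separate animals. The p-values therefore measure the spread between these samples, which may be technical.

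Peroxisomes shorten fatty acids that mitochondria handle poorly, such as very long-chain, branched-chain and dicarboxylic acids. ABCD transporters bring the acyl-CoA in, an acyl-CoA oxidase adds a double bond and makes hydrogen peroxide, a bifunctional enzyme hydrates and dehydrogenates the product, and a thiolase splits off acetyl-CoA. Many of these genes are known targets of PPAR transcription factors, and brown fat is known to be rich in peroxisomes.

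Values are log2 expression values, on which a difference of 1 is a doubling, and levels are not compared between probe sets. Array medians lay between 3.33 and 3.47, and arrays of 1 group correlated at 0.945 to 0.988 over all probe sets. The SD of the values on an array was 1.91 to 2.00 in WAT, 1.65 to 1.72 in BAT and 1.74 to 1.78 in CL. It was 1.69 to 1.75 in RS and 1.83 to 1.85 in RG, so the spread of values was widest in WAT. What this did to differences from WAT was not tested beyond a quantile normalization. A dim level was set on each array at the 95th percentile of 1354 olfactory and vomeronasal receptor probe sets; it lay at 3.01 to 3.13 on the WAT arrays and at 3.54 to 3.70 on the BAT arrays. All 9 measured markers of mature adipocytes were above it on every array. Their mean level lay between 7.79 and 9.61 in WAT, where WAT 4 was lowest, and between 9.55 and 10.33 in the other groups. The mean of 8 brown or beige markers lay at 4.02 to 4.98 in WAT, 8.35 to 9.0 in BAT, 8.16 to 8.57 in CL, 6.65 to 6.72 in RS and 6.60 to 7.55 in RG. The mean of 10 macrophage markers lay at 7.33 to 8.70 in WAT and 4.53 to 6.15 in the other groups, and that of 9 stromal markers at 7.12 to 8.86 in WAT and 4.84 to 6.78 elsewhere, both highest on WAT 4. Against WAT, 10, 10, 10 and 9 of the macrophage markers and 9, 6, 8 and 4 of the stromal ones were called lower in BAT, CL, RS and RG, while 1, 2, 3 and 5 of the adipocyte markers were called higher. Endothelial markers lay at 6.17 to 7.59 in WAT and 4.18 to 7.86 elsewhere, with RS 3 lowest. In RS, 6 of 8 endothelial markers were called lower than in WAT, 3 lower than in CL and 1 lower than in BAT, and in RG 1 was lower than in WAT and 1 lower than in BAT. Of 6 hepatocyte and 6 skeletal muscle markers, at most 3 of either list were above the dim level on any array. The part of other cells in the results below was not tested beyond a scaling to the adipocyte markers, and fewer cells of a type and less RNA per cell cannot be told apart.

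**Figure D1:**
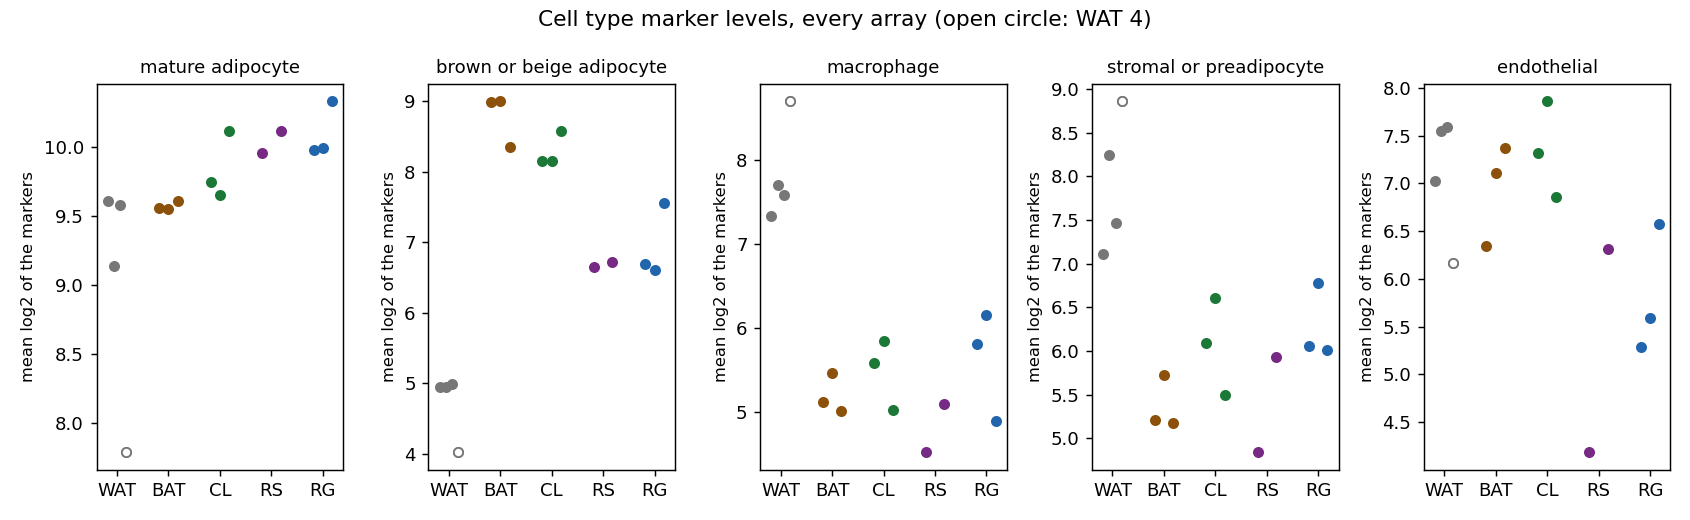
Mean log2 level of 5 marker lists on each of the 15 arrays, by group; points are arrays and the open circle is WAT 4. Macrophage markers lay at 7.33 to 8.70 in WAT and at 4.53 to 6.15 elsewhere, and WAT 4 had the lowest mature adipocyte level, 7.79.

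Differences were tested with limma, with p-values adjusted by Benjamini-Hochberg over all 25206 probe sets and a threshold of 0.05. Over the 5 groups, 7 of the 8 genes passed limma's F-test, as did 43.1% of all probe sets; Acox3 did not (adjusted p = 0.106). In BAT against WAT, 6 of 8 genes were called higher and 0 lower, where 44% of all probe sets were called in either direction and 27.6% were called higher. In CL against WAT, 5 were called higher and 0 lower, against a background of 25.2% called and 15.2% called higher. In RG against WAT, 3 were called higher and 0 lower, with 11.4% of all probe sets called and 5.19% called higher. In RS against WAT, 0 genes were called by limma, where 21.4% of all probe sets were called after adjustment. Of the 8 genes, 4 had an unadjusted p under 0.05 there. The share of all probe sets at that unadjusted level is not given here, so unadjusted counts here and below have no background. The median difference of the 8 genes from WAT was 1.02 in BAT, 0.99 in CL, 0.84 in RG and 0.52 in RS. Over all probe sets the same medians were 0.18, 0.13, 0.10 and 0.14. These comparisons share the WAT arrays, so they are not independent of one another. Without WAT 4, whose markers stood apart, 5 genes were called higher and 1 (Abcd2) lower in BAT, 5 higher in CL, 0 in RS and 2 higher in RG. The shares of all probe sets called in that fit are not given here, so these counts have no background. The replicate number in the labels took 8.22% of the within-group sum of squares on average over probe sets, where its 3 of 10 residual degrees of freedom would give 30%. Whether the deposited values were centred on that number is not given in the sources used here; if they were, p-values from fits without it, and those of the permutation tests, are too small. With the number as a replicate block (7 residual degrees of freedom), 5 genes were called higher in BAT, 5 in CL, 0 in RS and 2 in RG against WAT, with 28.9%, 9.76%, 8.14% and 4.25% of all probe sets called, and 4 passed the F-test. The values on each array show which genes stood behind these counts and which did not.

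**Figure D2:**
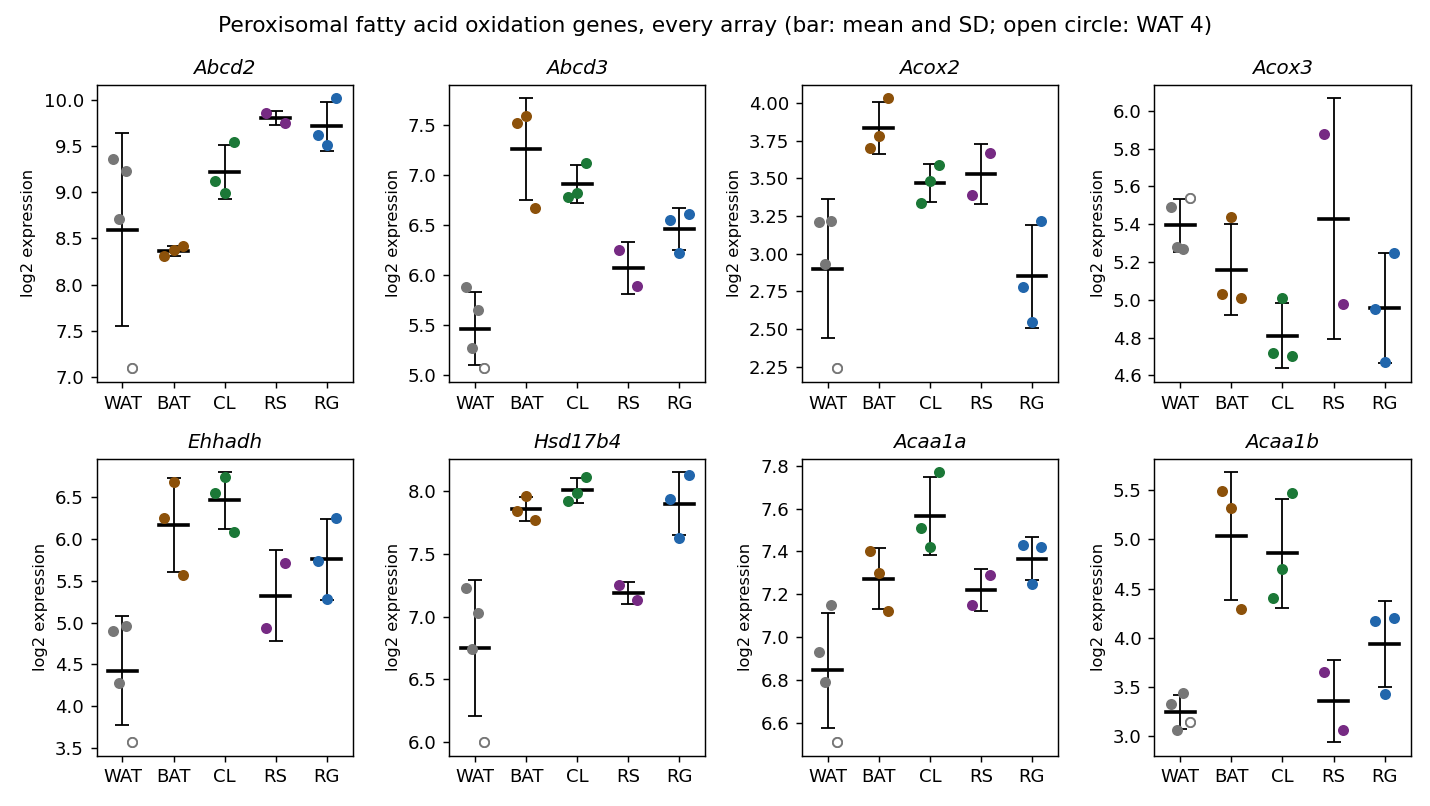
Log2 expression value of each of the 8 genes on every array; points are arrays, bars are the group mean and SD, and the open circle is WAT 4. Abcd3 lies at 5.07 to 5.88 in WAT and at 6.67 to 7.58 in BAT without overlap, while Abcd2 lies at 8.31 to 8.42 in BAT, inside the WAT range of 7.09 to 9.36.

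Abcd3 (Entrez 19299) encodes the abundant peroxisomal membrane transporter PMP70, which carries long-chain, branched-chain and dicarboxylic acyl-CoA. Its log2 values were 5.88, 5.27, 5.65 and 5.07 in WAT and 7.51, 7.58 and 6.67 in BAT. They were 6.78, 6.82 and 7.12 in CL, 6.25 and 5.89 in RS, and 6.55, 6.22 and 6.61 in RG. Every array of the other groups was above every WAT array, with BAT 1 and BAT 3 at the top and the RS arrays nearest to WAT. The difference from WAT was 1.79 ± 0.238 (SE) in BAT, a 3.45-fold higher level (adjusted p = 9.54e-05). It was 1.44 ± 0.238 in CL (2.71-fold, adjusted p = 0.00114) and 0.99 ± 0.238 in RG (1.99-fold, adjusted p = 0.016). The RG call was lost without RG 2 (adjusted p = 0.0656) or RG 4 (0.075), and over the 15 fits that each left out 1 array the adjusted p lay between 0.00779 and 0.075. In RS the difference was 0.60 (95% interval 0.03 to 1.18, adjusted p = 0.115), which did not pass.

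Abcd2 (Entrez 26874) encodes the related transporter ALDRP, which carries very long-chain acyl-CoA and is well expressed in adipose tissue. Its values were 9.36, 8.71, 9.23 and 7.09 in WAT and 8.31, 8.37 and 8.42 in BAT. They were 9.12, 8.99 and 9.55 in CL, 9.86 and 9.75 in RS, and 9.62, 9.51 and 10.02 in RG. The RS and RG arrays were all above every WAT and BAT array, and WAT 4 was the lowest of all 15. The mean order ran RS, RG, CL, WAT, BAT, with 9.81, 9.72, 9.22, 8.60 and 8.37, and no neighbours in that order passed a test of their difference. None of the 4 differences from WAT passed. They were 1.21 in RS (95% interval 0.27 to 2.14, adjusted p = 0.06), 1.12 in RG (0.30 to 1.94, 0.0729), 0.62 in CL (−0.20 to 1.45, 0.245) and −0.23 in BAT (−1.05 to 0.59, 0.648). WAT arrays decided these values. Without WAT 1 the RS (adjusted p = 0.029) and RG (0.0329) differences were called higher, as they were without WAT 3 (0.0421 and 0.0485). Over the 15 single-array omissions the RS difference ran from 0.71 to 1.46, with adjusted p up to 0.19. The RG difference ran from 0.62 to 1.37, with adjusted p up to 0.225. Without WAT 4 the BAT difference became −0.73 and was called lower (adjusted p = 0.0134). For BAT the adjusted p over the 15 such fits ran from 0.0134 to 0.972. Scaled to the adipocyte markers, the differences from WAT were 0.20 in RS and 0.05 in RG, and neither was called. In this gene RG was 1.35 ± 0.414 above BAT (2.55-fold, adjusted p = 0.0415), a call that 8 of the 15 single-array omissions ended (WAT 2, CL 1 and each BAT and RG array, with adjusted p up to 0.121).

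Acox2 (Entrez 93732) encodes a branched-chain acyl-CoA oxidase that also acts on bile acid intermediates. Its values were 3.21, 2.93, 3.22 and 2.24 in WAT, 3.70, 3.78 and 4.03 in BAT and 3.34, 3.48 and 3.59 in CL. They were 3.39 and 3.67 in RS and 2.78, 2.55 and 3.22 in RG. The BAT, CL and RS arrays were all above the WAT arrays, but the gene was at or under the dim level on 8 of 15 arrays, all 3 RG arrays among them, and at most 0.33 above it on any array. The difference of 0.94 ± 0.226 between BAT and WAT was called (adjusted p = 0.00447) and held in each of the 15 single-array omissions. With no WAT array taken below its dim level the difference was 0.69 (1.62-fold). The dim level itself was higher on the BAT arrays than on the WAT arrays, as given above. Scaled to the adipocyte markers, the difference was 0.39 and was not called (adjusted p = 0.642, with a range of 0.00403 to 0.642 over all alternatives). CL (0.57, adjusted p = 0.0755), RS (0.63, 0.0873) and RG (−0.05, 0.909) did not pass against WAT. RG was called lower than BAT (−0.99 ± 0.242, adjusted p = 0.0164). Acox2 was not above the dim level in RG, and with RG taken at that level BAT was 1.37-fold higher. The dim level was itself higher on the BAT arrays (3.54 to 3.70) than on the RG arrays (3.29 to 3.43). In BAT, Acox2 lay only 0.04 to 0.33 above it, so the 1.37-fold is not a lower bound on expression. The call of RG below BAT was lost without BAT 4, RG 2 or RG 3. Its adjusted p lay between 0.0049 and 0.0718 over the single-array omissions.

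Acox3 (Entrez 80911) encodes pristanoyl-CoA oxidase, which starts the oxidation of methyl-branched fatty acids. Its values were 5.49, 5.28, 5.27 and 5.54 in WAT, 5.03, 5.44 and 5.01 in BAT and 4.72, 5.01 and 4.70 in CL. They were 5.88 and 4.98 in RS and 4.95, 4.67 and 5.25 in RG. The CL and RG arrays lay below every WAT array, BAT overlapped WAT, and the RS arrays fell on either side of it. No difference from WAT passed: −0.59 in CL (95% interval −1.03 to −0.14, adjusted p = 0.0528), −0.44 in RG (−0.89 to 0.01, 0.185), −0.24 in BAT (−0.68 to 0.21, 0.375) and 0.04 in RS (−0.47 to 0.54, 0.926). The CL difference was called lower in 8 of 24 alternatives: without BAT 3, RS 3 or RS 4, with centring on medians, the filter on a mean above 5, array weights, only the groups compared, and the scaling to adipocyte markers. Its adjusted p ran from 0.0179 to 0.267 over the alternatives. Acox3 was the only one of the 8 genes with means below WAT in BAT, CL and RG together.

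Ehhadh (Entrez 74147) encodes the L-bifunctional enzyme, which acts on dicarboxylic acids and is a textbook PPAR alpha target. Its promoter is shown because the gene had the largest difference from WAT of the 8 in both CL and RG; letters run from 250 bases before to 50 after the start, and capitals mark CCAAT on either strand. The sequence is from RefSeq (GRCm38.p6, chr16:21787785-21788084, minus strand).
Ehhadh: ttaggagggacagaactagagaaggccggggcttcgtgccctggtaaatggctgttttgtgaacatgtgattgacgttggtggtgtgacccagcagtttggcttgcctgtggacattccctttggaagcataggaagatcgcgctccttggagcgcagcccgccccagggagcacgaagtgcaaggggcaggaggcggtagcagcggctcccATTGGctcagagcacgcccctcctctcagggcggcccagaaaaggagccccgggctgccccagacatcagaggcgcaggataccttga
Ehhadh values were 4.90, 4.28, 4.96 and 3.57 in WAT, 6.25, 6.69 and 5.57 in BAT and 6.55, 6.75 and 6.09 in CL. They were 4.94 and 5.71 in RS and 5.74, 5.28 and 6.25 in RG. All BAT, CL and RG arrays were above every WAT array, and of the RS arrays RS 3 lay within the WAT range. The difference from WAT was 2.04 ± 0.351 in CL (4.10-fold, adjusted p = 0.00144) and 1.74 ± 0.351 in BAT (3.35-fold, adjusted p = 0.00147). In RG it was 1.33 ± 0.351 (2.51-fold, adjusted p = 0.0253). The RG call was lost without WAT 2 (adjusted p = 0.0596), WAT 4 (0.0665), RG 2 (0.076) or RG 4 (0.125), and the single-array omissions gave adjusted p from 0.0199 to 0.125. It was also lost with the replicate block (adjusted p = 0.0562). The RS difference of 0.90 (95% interval 0.05 to 1.74, adjusted p = 0.112) did not pass.

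Hsd17b4 (Entrez 15488) encodes the D-bifunctional enzyme, which serves very long-chain and branched-chain fatty acids. Its values were 7.23, 6.74, 7.03 and 6 in WAT, 7.84, 7.96 and 7.77 in BAT and 7.92, 7.99 and 8.11 in CL. They were 7.25 and 7.13 in RS and 7.94, 7.63 and 8.13 in RG. The BAT, CL and RG arrays all lay above the WAT and RS arrays, and RS overlapped WAT. The gene was 1.26 ± 0.230 above WAT in CL (2.39-fold, adjusted p = 0.00199), 1.15 ± 0.230 in RG (2.22-fold, 0.00682) and 1.11 ± 0.230 in BAT (2.15-fold, 0.00179). These 3 calls held in each single-array omission, with adjusted p of at most 0.0417. Scaled to the adipocyte markers, none of the 3 was called, with 0.45 in CL, 0.08 in RG and 0.56 in BAT. The RS difference was 0.44 (95% interval −0.12 to 1.00, adjusted p = 0.227).

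Acaa1a and Acaa1b encode near-identical thiolases, the last enzymes of the cycle, so part of the signal of either probe set could come from the other gene. Their promoters are shown because the paired genes had unequal differences from WAT. They are given as for Ehhadh, from chr9:119341044-119341343 (plus strand) for Acaa1a and chr9:119157044-119157343 (minus strand) for Acaa1b. The Acaa1a window lies inside the annotated gene (119341028 to 119350296), so its start is not the first base of that gene. The windows of Acaa1b and Ehhadh reach beyond their genes.
Acaa1a: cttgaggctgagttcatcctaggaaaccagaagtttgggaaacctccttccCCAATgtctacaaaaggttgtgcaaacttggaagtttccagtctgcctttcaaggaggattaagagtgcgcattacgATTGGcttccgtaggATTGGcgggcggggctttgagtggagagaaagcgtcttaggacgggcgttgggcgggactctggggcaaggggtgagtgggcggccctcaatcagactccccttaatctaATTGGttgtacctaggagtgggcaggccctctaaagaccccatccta
Acaa1b: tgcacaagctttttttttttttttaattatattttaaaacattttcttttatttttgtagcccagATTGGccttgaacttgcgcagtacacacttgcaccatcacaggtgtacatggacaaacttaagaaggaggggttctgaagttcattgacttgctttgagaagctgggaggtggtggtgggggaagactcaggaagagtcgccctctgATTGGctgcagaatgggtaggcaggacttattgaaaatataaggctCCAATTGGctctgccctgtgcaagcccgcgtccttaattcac
Each of these thiolase promoters held 4 CCAAT matches (in Acaa1b 2 of them overlap), and that of Ehhadh held 1. CCAAT, searched on both strands, was found in 37.4% of the 32851 mouse promoters of this length. The bases G and C made up 53.3% of the Acaa1a window, 43.7% of the Acaa1b window and 60.7% of the Ehhadh window. The PPAR half-site AGGTCA, on either strand, was in 0 of the 8 promoter sequences that the table holds for 6 of the genes, and in 16.3% of all promoters. A direct repeat of that half-site with a 1-base spacer, allowing 2 mismatches, was in 1 of the 8, an Acox2 promoter, and in 3.86% of all. These matches describe the windows only. Abcd2 and Hsd17b4 had no entry.

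Acaa1b (Entrez 235674) values were 3.33, 3.06, 3.44 and 3.14 in WAT, 5.49, 5.32 and 4.29 in BAT and 4.40, 4.70 and 5.47 in CL. They were 3.65 and 3.06 in RS and 4.17, 3.43 and 4.20 in RG. All BAT and CL arrays were above every WAT, RS and RG array, and the gene was at or under the dim level on WAT 2 and RS 4. Relative to the dim level of each array it lay at −0.07 to 0.34 in WAT, −0.60 to 0.07 in RS and 0.02 to 0.91 in RG. It lay 0.59 to 1.83 above that level in BAT and 0.83 to 1.87 above it in CL. The sizes of its differences from WAT therefore rest on a reference near background. The difference from WAT was 1.79 ± 0.305 in BAT (3.46-fold, adjusted p = 0.00048) and 1.61 ± 0.305 in CL (3.06-fold, adjusted p = 0.00244). Both calls held in each single-array omission. Scaled to the adipocyte markers, the CL call was lost (0.80, limma adjusted p = 0.169) and the BAT call held (1.25). RG (0.69, 95% interval 0.04 to 1.34, adjusted p = 0.151) and RS (0.11, −0.62 to 0.85, 0.831) did not pass.

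Acaa1a (Entrez 113868) showed smaller differences. Its values were 6.93, 6.79, 7.15 and 6.51 in WAT, 7.40, 7.30 and 7.12 in BAT and 7.51, 7.42 and 7.77 in CL. They were 7.15 and 7.29 in RS and 7.43, 7.25 and 7.42 in RG. CL and RG lay above every WAT array, while BAT 4 lay below and RS 3 level with WAT 3. The CL difference of 0.72 ± 0.164 was called (1.65-fold, adjusted p = 0.00655) and held in each single-array omission. The BAT difference of 0.43 ± 0.164 was called (1.35-fold, adjusted p = 0.0448). It was lost in 9 of the 15 omissions (WAT 1, WAT 2, WAT 4, BAT 1, BAT 3, CL 1 and each RG array), where the adjusted p reached 0.141. The replicate block (0.131), centring on medians, array weights and only the groups compared also ended that call, which was lost in 14 of 24 alternatives. Scaled to the adipocyte markers, the difference was −0.088 in CL and −0.115 in BAT. RG (0.52, 95% interval 0.17 to 0.87, adjusted p = 0.0509) did not pass, but was called without WAT 3, BAT 4 or CL 4 (adjusted p from 0.0308). RS differed from WAT by 0.38 (−0.02 to 0.77, adjusted p = 0.151).

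**Figure D3:**
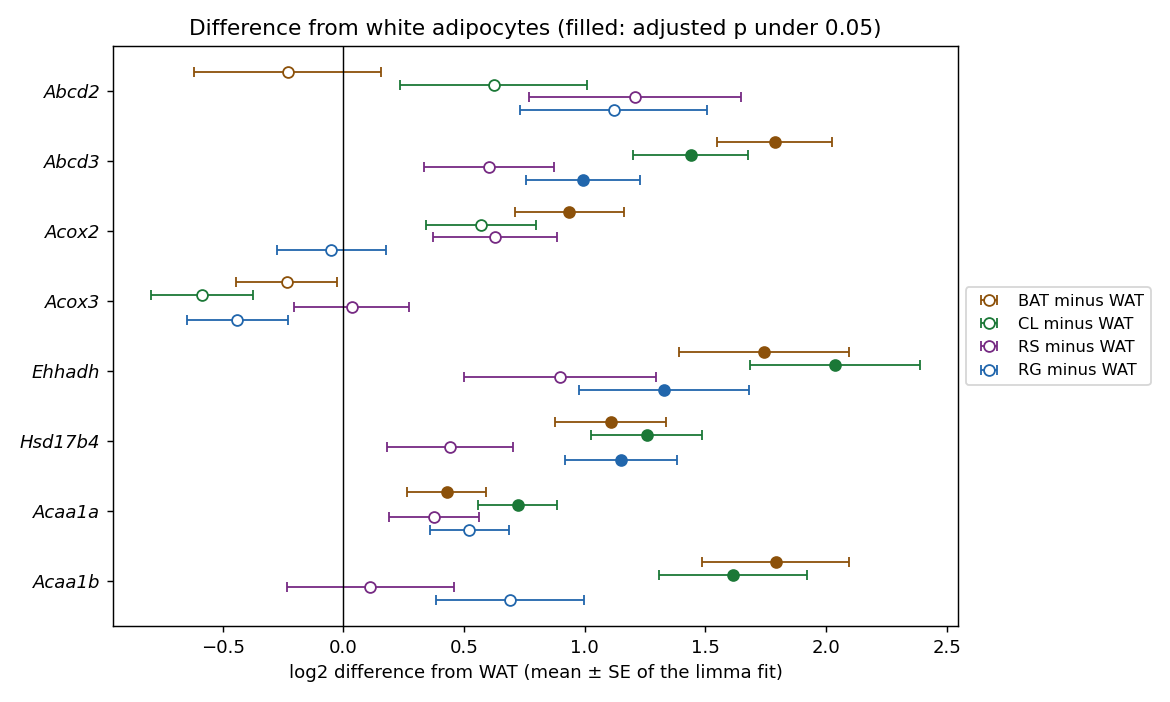
Log2 difference from the WAT mean for each gene in BAT, CL, RS and RG, with bars for ± 1 SE of the limma fit; filled points passed an adjusted p of 0.05. Ehhadh, Hsd17b4 and Abcd3 passed in BAT, CL and RG, and no gene passed in RS.

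Scaling each array to its mature adipocyte markers, an alternative chosen after seeing the data, moved these counts. It shifted every probe set by 0.54 in BAT, 0.81 in CL, 1.01 in RS and 1.07 in RG relative to WAT, the amounts by which the marker mean exceeded that of WAT. The shares of all probe sets called under this scaling are not given here, so the scaled counts have no background share. In BAT 3 genes were still called higher, Ehhadh (1.20), Acaa1b (1.25) and Abcd3 (1.24), where the median of all probe sets was −0.36. In CL 1 was called higher, Ehhadh (1.23), and 1 lower, Acox3 (−1.39), beside a median of −0.68. In RG 0 were called higher and 2 lower, Acox2 (−1.12) and Acox3 (−1.51), beside a median of −0.97. There, Ehhadh was at 0.26, Hsd17b4 at 0.08 and Abcd3 at −0.08, so none of the 3 RG calls held under this scaling. The RG arrays also had the highest mean of mature adipocyte markers, 10.10 against 9.03 in WAT. A larger part of adipocytes and a response of the marker genes themselves to treatment cannot be told apart here. The scaling therefore does not show what lay behind the lost calls.

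Against BAT, the 8 genes gave few calls, and all of those that were lower lay in RS and RG. CL differed from BAT in 0 of 8 genes by limma (0 also at an unadjusted p under 0.05), where 2.05% of all probe sets were called. The 95% intervals of these differences reached from −0.89 to 1.73, which leaves differences of that size possible. Abcd2, 0.85 higher in CL than in BAT (adjusted p = 0.28), was called without WAT 4 (0.0456). RS was called lower than BAT in 2 genes and higher in 0, where 3.67% of probe sets were called and 2.34% were called lower. These were Acaa1b (−1.68 ± 0.365, adjusted p = 0.023) and Abcd3 (−1.18 ± 0.284, adjusted p = 0.0343). In RS, Acaa1b was near the dim level, as given above. The Acaa1b call was lost without BAT 1, BAT 3 or RS 4 (adjusted p from 0.00655 to 0.108), and the Abcd3 call without BAT 1, BAT 3, RS 3 or RS 4 (0.00947 to 0.137). Abcd2 was 1.44 above BAT in RS (95% interval 0.45 to 2.42, adjusted p = 0.0971), a difference that was called without WAT 4 (0.00423). RG was called lower than BAT in 3 genes and higher in 1, where 14.3% of probe sets were called, 8.42% lower and 5.85% higher. Beside Acox2 and Abcd2, given above, these were Acaa1b (−1.10 ± 0.326, adjusted p = 0.0366) and Abcd3 (−0.79 ± 0.254, adjusted p = 0.0488). Without BAT 1, BAT 3 or any RG array both of these calls were lost; the Abcd3 call was also lost without WAT 2, WAT 3 or any CL array. The highest adjusted p in these omissions was 0.142 for Acaa1b and 0.155 for Abcd3. With the replicate block none of the 6 calls of RS or RG against BAT held, with adjusted p from 0.114 to 0.21. In that fit only 0.286% of all probe sets were called in RS against BAT and 1.38% in RG against BAT.

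Between the treated groups none of the 8 genes passed after adjustment. The shares of probe sets called below are after adjustment and are no background for the unadjusted counts. Between RS and CL limma called 0 genes, with 5 at an unadjusted p under 0.05 and 1.27% of all probe sets called. Acaa1b was 1.50 lower on average in RS (95% interval −2.28 to −0.73, adjusted p = 0.0578), and was called without BAT 4 (0.0334). Its RS arrays (3.65 and 3.06) lay below all CL arrays (4.40 to 5.47). Differences between RS and CL were −1.14 for Ehhadh (adjusted p = 0.179), −0.84 for Abcd3 (0.149) and −0.82 for Hsd17b4 (0.147), again with no overlap between arrays. Acox3 differed by 0.62 (adjusted p = 0.219), and was called without RS 4 (difference 1.07, adjusted p = 0.0489). Between RS and RG, 0 genes were called, 2 had an unadjusted p under 0.05 (Acox2 and Hsd17b4), and 0.682% of probe sets were called. Hsd17b4 differed by −0.71 (95% interval −1.30 to −0.12, adjusted p = 0.189), with both RS arrays below all RG arrays. Between CL and RG, 0 genes were called, 2 had an unadjusted p under 0.05 (Acox2 and Acaa1b), and 2.87% of probe sets were called. Acaa1b was at 4.40 to 5.47 in CL and 3.43 to 4.20 in RG, a difference of 0.92 (95% interval 0.23 to 1.62, adjusted p = 0.134).

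Genes of the same step were then compared by how far each had moved from its own WAT mean on the same array, a test chosen after seeing the data. The difference between the paired genes was tested over the 5 groups with a permutation test of 100000 resamples, adjusted by Benjamini-Hochberg over the 4 pairs. For the transporters, Abcd3 minus Abcd2 was 2.02 ± 0.551 (SD) in BAT, 0.82 ± 0.132 in CL, −0.61 ± 0.177 in RS and −0.13 ± 0.172 in RG. The groups differed (permutation test, adjusted p = 0.00412), which was tested over all 5 groups and not for single groups against WAT. WAT itself ran from −0.45 to 1.11, with WAT 4 highest; CL (0.70 to 0.96) lay inside that range and BAT (1.38 to 2.34) above it. For the thiolases, Acaa1b minus Acaa1a was 1.36 ± 0.512 in BAT, 0.89 ± 0.405 in CL, −0.26 ± 0.516 in RS and 0.17 ± 0.336 in RG (permutation test, adjusted p = 0.00728). Acaa1b was near the dim level in WAT and RS. Both pairs passed in all 16 omissions of arrays, with an adjusted p of at most 0.0194 and 0.0226 respectively. For the oxidases, Acox2 minus Acox3 was 1.17 ± 0.340 in BAT, 1.16 ± 0.213 in CL, 0.60 ± 0.834 in RS and 0.39 ± 0.0709 in RG (permutation test, adjusted p = 0.0272). That result was lost in 5 of 16 omissions, reaching 0.0573 without BAT 1, and Acox2 was near the dim level. For the bifunctional enzymes, Ehhadh minus Hsd17b4 was 0.64 ± 0.473 in BAT, 0.78 ± 0.418 in CL, 0.46 ± 0.629 in RS and 0.18 ± 0.240 in RG and did not pass (permutation test, adjusted p = 0.119, or 0.0491 to 0.218 over the omissions).

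**Figure D4:**
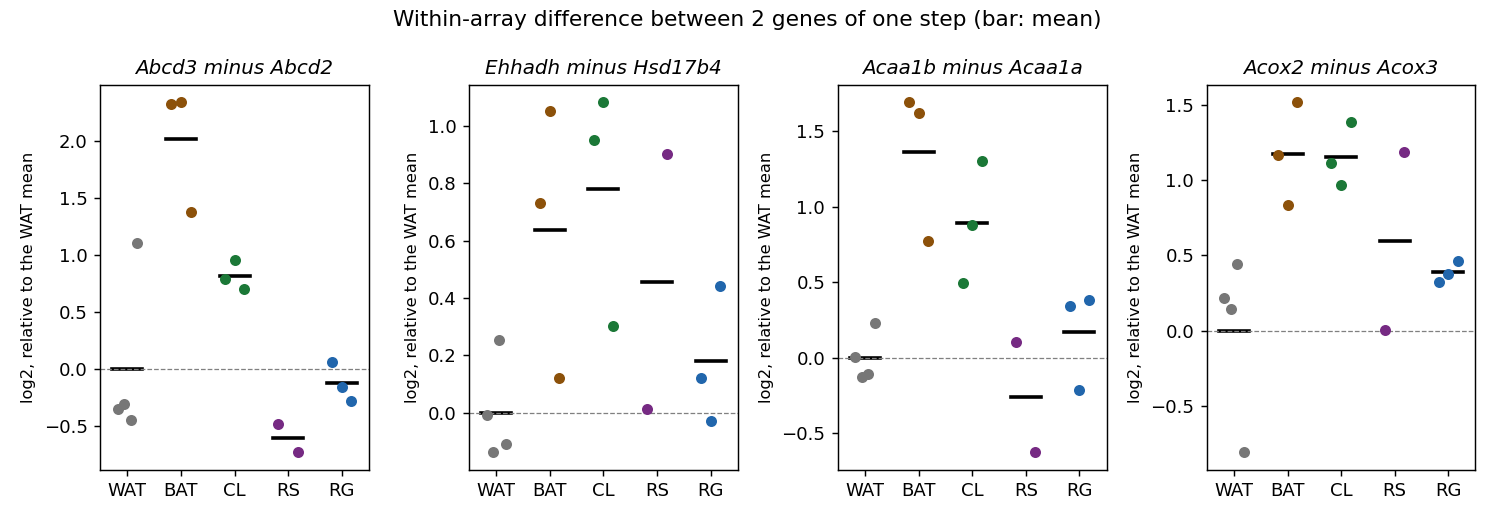
Difference between paired genes of a step on each array, each gene taken relative to its WAT mean (log2); points are arrays and bars are group means. Abcd3 minus Abcd2 averages 2.02 in BAT and −0.61 in RS, and Acaa1b minus Acaa1a averages 1.36 in BAT and −0.26 in RS.

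For each gene that passed the F-test, the genes of most similar profile were sought among 5620 probe sets, by the root mean square distance between mean-centred log2 values over the 15 arrays. Abcd2 lay nearest to Retn, which encodes the adipokine resistin (0.178), and Adipoq, which encodes adiponectin (0.239), both of the mature adipocyte marker list, beside a median distance of 0.813. Abcd3 lay nearest to Sdhd, a subunit of respiratory complex II (0.188), and Cox17, a copper chaperone of cytochrome oxidase (0.191), with a median of 0.838. Acaa1b lay nearest to Atp5o of the ATP synthase (0.310) and the mitochondrial carrier Slc25a42 (0.325), with a median of 0.942. Acaa1a lay nearest to Mff, a receptor for the fission of mitochondria and peroxisomes (0.124), and Ndufa2 of complex I (0.131), with a median of 0.468. Hsd17b4 lay nearest to Mfn2, a mitochondrial fusion protein (0.122), and L3hypdh (0.123), with a median of 0.691. Ehhadh had Mcrip2 (0.292) and Hsdl2 (0.333) as nearest, with a median of 0.983. Acox2 had the mitochondrial elongation factor Tufm (0.228) and Abhd11 (0.266), with a median of 0.637. These distances describe 15 arrays that share their groups.

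Other genes of the peroxisome gave a setting for the 8. Of 21 measured genes for the remaining steps of peroxisomal beta-oxidation, 13 were higher than WAT in BAT, 13 in CL, 6 in RS and 10 in RG, and 0 were lower in any of these. Over all probe sets, 27.6%, 15.2%, 11.1% and 5.19% were called higher in these comparisons and 16.4%, 9.97%, 10.3% and 6.24% lower, the background for this and the following lists. Of the genes called higher, 3 in BAT, 3 in CL, 3 in RS and 1 in RG, all of them acyl-CoA thioesterases of the Acot family, were at or under the dim level on every array compared. Slc27a2, an acyl-CoA synthetase for very long-chain fatty acids, was not above the dim level on any WAT array and had means of 7.23 in BAT, 5.72 in CL, 3.69 in RS and 3.53 in RG. With WAT taken at its dim level, Slc27a2 was 17.7-fold higher in BAT and 6.24-fold higher in CL (limma on the measured values, adjusted p = 4.08e-07 and 2.54e-05). The dim level was itself higher on the BAT and CL arrays than on the WAT arrays. It was at or under the dim level on 1 of 2 RS arrays and 2 of 3 RG arrays, so its calls there (adjusted p = 0.0147 and 0.0209) rest on values near background. Tysnd1, the protease that processes several peroxisomal enzymes, was 1.38 higher in BAT (adjusted p = 0.000228) and 1.11 higher in CL (0.00251). Decr2, a reductase for unsaturated fatty acids, was 1.10 higher in BAT (adjusted p = 0.000264). Ech1, an isomerase of unsaturated fatty acids, was 0.92 higher in RG (adjusted p = 0.0176), and Crat, carnitine acetyltransferase, 0.99 higher (0.0253). The list's median difference from WAT was 0.83 in BAT, 0.83 in CL, 0.42 in RS and 0.70 in RG.

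Of 9 genes for alpha-oxidation and other peroxisomal oxidases, 6 were higher than WAT in BAT, 5 in CL, 4 in RS and 4 in RG, and 1 (Aldh3a2, a fatty aldehyde dehydrogenase) was lower in BAT and in RS. Of the higher ones, Hao2 in BAT and Dao in CL and RS were at or under the dim level on every array compared. Ephx2, an epoxide hydrolase, was 1.68 higher in both CL (adjusted p = 0.00188) and RG (0.00416). Ddo, the oxidase of D-aspartate, was 1.79 higher in BAT (adjusted p = 0.00013) and 1.49 higher in RS (0.00341). Phyh, which starts the breakdown of phytanic acid, was 1.22 higher in BAT (adjusted p = 0.00192). The hydrogen peroxide made by the oxidases is removed mainly by catalase. A list of 7 genes held Cat, Prdx1 and Gstk1 for the removal of peroxides and the peroxisomal or related membrane proteins Mpv17, Pxmp2, Pxmp4 and Slc25a17. Of these, 0 were higher in BAT and 1 was lower (the peroxiredoxin Prdx1, −1.13, adjusted p = 0.00214). In CL Slc25a17, a peroxisomal cofactor carrier, alone was higher (0.83, adjusted p = 0.0453), in RS the glutathione transferase Gstk1 alone (0.97, 0.0314) and in RG catalase (Cat) alone (0.73, 0.033). For Cat the difference was 0.27 in BAT (adjusted p = 0.29), 0.54 in CL (0.0638) and 0.32 in RS (0.319).

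Of 16 measured peroxisome assembly and division genes, 6 were higher than WAT in BAT, 5 in CL, 1 in RS (Pex16, 1.39, adjusted p = 0.0207) and 1 in RG (Pex11a, 1.00, 0.0303), and 0 were lower. In BAT these included Pex7, the import receptor for thiolase (1.01, adjusted p = 0.00221), and Pex6 (0.92, 0.00375). Of 5 genes of ether lipid synthesis, another peroxisomal pathway, Gnpat and Dhrs7b were higher than WAT and Far1 lower in all 4 groups, and Agps was lower in BAT. Far1, which makes the fatty alcohol, differed by −1.43 in BAT (adjusted p = 0.000559) and −1.01 in RG (0.0188). Of 16 measured genes of mitochondrial beta-oxidation, 15 were higher in BAT, 15 in CL, 5 in RS and 15 in RG, with medians of 1.57, 1.52, 0.80 and 1.15. Acaa2, the mitochondrial thiolase, was 2.57 higher in BAT (adjusted p = 6e-07) and 1.11 higher in RG (0.00199). Cpt1a, the carnitine palmitoyltransferase of liver type, was lower in BAT (−0.89, adjusted p = 0.0151), RS (−1.67, 0.00264) and RG (−1.05, 0.0222).

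Of 12 regulators of the PPAR axis, 7 were higher and 1 lower than WAT in BAT, 5 and 0 in CL, 3 and 1 in RS, and 5 and 0 in RG. Ppara, the receptor that drives Ehhadh and Acaa1b in liver, had means of 3.79 in WAT, 6.66 in BAT, 5.87 in CL, 4.57 in RS and 5.24 in RG. Its differences from WAT were 2.87 in BAT (adjusted p = 2.71e-05), 2.08 in CL (0.000747) and 1.45 in RG (0.0112), and 0.77 in RS (0.131), which did not pass. Pparg, the target of rosiglitazone, was 0.91 higher in RG (adjusted p = 0.00458), 0.54 in BAT (0.0195) and 0.56 in RS (0.0496). The coactivator Ppargc1b was higher in all 4 groups, by 2.11 in BAT (adjusted p = 6.06e-06), 1.40 in CL (0.000357), 1.22 in RG (0.00151) and 0.82 in RS (0.017). Med1, a Mediator subunit that binds PPARs, was lower in RS (−0.62, adjusted p = 0.0164).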

How the data were processed

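The authors deposited a table of log2 expression values, with a value for each probe set on each array. As tools, the submitters' processing notes list Affymetrix Expression Console, affy 1.36.1 and RMA; their order, settings and probe-set definition are not given in the sources used here. All 15 arrays and 25206 probe sets were used, with no filter; 23185 had 1 gene symbol through their Entrez number, 2021 had none and 0 had several. Arrays have no read depth, so their number limits the precision.

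Limma 3.58.1 in R 4.3.3 (lmFit, contrasts.fit, eBayes) fitted a mean per group to all arrays, with 10 residual degrees of freedom. RS, with 2 arrays, is taken to vary like the other groups. Two-sided p-values were adjusted by Benjamini-Hochberg within each comparison, over all probe sets, at a threshold of 0.05. The script was tested on simulated data. The genes, gene lists and markers were chosen with earlier results of these data known. Of each gene list, counts are given with up to 4 genes of smallest adjusted p in the comparison described. Up to 2 genes of similar profile are named per gene, among probe sets with a mean above 5. Some genes of these lists are not reported here. Promoters span 250 bases before to 50 after each RefSeq start.

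Alternatives were a quantile normalization, centring on array medians, a filter on a mean above 5, array weights, trend and robust eBayes, only the groups compared, a replicate block, and omission of each array. Deviations of same-numbered arrays correlated at −0.88 to −0.05 in 24 pairs, with 0 over 0.1, so the numbers were not taken as pairs. This check says little where values were centred on the number, which the sources used here do not settle, so fits with the block are given beside the results they change. Scaling to adipocyte markers and the comparison of paired genes were chosen after seeing the data.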

Additional observations from a re-analysis of the deposited data

How the results depend on the processing

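Counts of the 8 genes called in BAT, CL and RG against WAT were within 1.5 times of 6, 5 and 3 under each alternative that is not named here. Scaled to mature adipocyte markers (chosen after seeing the data), 3 were called in BAT, all higher, and 2 in CL, Ehhadh higher and Acox3 lower. In RG against WAT the 3 higher calls were lost under this scaling, and 2 genes, Acox2 and Acox3, were called lower. With it 4 passed the F-test, and 1 each was called in RS and RG against BAT. The differences from WAT turned to −0.115 for Acaa1a in BAT, −0.088 for Acaa1a in CL and −0.0816 for Abcd3 in RG. With the replicate block, which left 7 residual degrees of freedom in place of 10, 4 passed the F-test, 0 were called in RS or RG against BAT, and 5, 5 and 2 in BAT, CL and RG against WAT. Quantile normalization called 1 in RS against WAT. Array weights called 6 in RG against WAT and 0 in RS against BAT. RG against BAT gave 2 calls with centring on medians, with the mean above 5 and with only the groups compared. RS against BAT gave 1 with the mean above 5. That filter left out Acox2 (mean 3.28) and Acaa1b (4.08), so their calls were not tested there rather than lost. With only the groups compared, RS against BAT gave 1, Abcd2 higher in RS, and the lower calls of Acaa1b and Abcd3 were both lost. Without both WAT 4 and RS 3, CL against BAT gave 1. Over the omissions of 1 array, counts ran from 0 to 1 in RS against WAT, CL against BAT and RS against CL, from 1 to 5 in RG against WAT, from 0 to 3 in RS against BAT and from 0 to 4 in RG against BAT. Of these alternatives, shares of all probe sets called are given for the replicate block only, and there not for the F-test. Beyond the genes left out by the filter, the cause of the moved counts was not tested. With 2 to 4 arrays per group, Acox2 near the dim level, and Acaa1b near it in WAT and RS, small differences could not be resolved.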
